A study of Mus musculus with 12 samples.

Results

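The genes described here build and hold together the sarcomere, apart from the myosins, actins, tropomyosins and troponins that carry out contraction. They are 39 listed genes for giant scaffold proteins, Z-disc proteins, M-band and thick-filament accessory proteins, regulators of thin-filament length, desmin, and chaperones and turnover factors of the sarcomere. A listed gene was kept where its mean over the 12 libraries was at least 0.5 CPM (counts scaled to a common library total), which left 37 of 39, all of them among the 13250 of 55416 genes that were tested. The lowest kept were Myot at 0.567 CPM and Mybpc1 at 0.894, and those left out were Tmod4 at 0.322 and Myoz1 at 0.301. The 12 RNA-seq libraries came from C2C12, an established mouse skeletal myoblast line, in 4 groups of 3. Wild-type (WT) cells, and cells whose genotype is given as Mapk14 knockout (KO), were either kept in growth medium (GM, DMEM with 10% fetal bovine serum) or switched to differentiation medium (DM, DMEM with 2% horse serum) at about the same confluence, in each case for 5 days. All carry 1 batch date. The way the knockout was made and the number of clones are not stated in the labels. The replicates are called biological without a description of their cultures, so p-values measure the spread between these libraries.

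The sarcomere is the repeating contractile unit of striated muscle. Thin filaments are anchored at the Z-disc by alpha-actinin and thick filaments are crosslinked at the M-band by myomesins, while titin spans from one to the other and nebulin runs along the thin filament. Chaperones such as Unc45b fold myosin during assembly, and BTB-kelch proteins and other factors stabilize or turn over the parts. C2C12 myoblasts build sarcomeres as they fuse into myotubes after serum is lowered.

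Promoter sequences are shown for 9 of these genes, because they differ in how their RNA responded. Des, Smpx, Smyd1, Trim54 and Klhl40 are the genes whose response to DM differed between the genotype labels. Ttn and Mybph rose in both genotypes, Actn2 had the lowest KO DM level relative to WT DM, and Bag3 was called in no comparison. Each run ends at the annotated start of the gene, or where a transcript of the gene in GENCODE M21 begins, and reads 5′ to 3′ on the gene's strand. Capitals mark E-boxes (CANNTG, the site of myogenic bHLH factors) and MEF2-type sites (CTA and TAG with any 4 bases between).
Des: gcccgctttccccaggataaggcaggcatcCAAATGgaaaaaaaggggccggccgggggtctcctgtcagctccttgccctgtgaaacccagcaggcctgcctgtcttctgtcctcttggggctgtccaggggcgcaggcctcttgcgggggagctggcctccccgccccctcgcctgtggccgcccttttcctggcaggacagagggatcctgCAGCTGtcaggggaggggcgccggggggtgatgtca
Smpx: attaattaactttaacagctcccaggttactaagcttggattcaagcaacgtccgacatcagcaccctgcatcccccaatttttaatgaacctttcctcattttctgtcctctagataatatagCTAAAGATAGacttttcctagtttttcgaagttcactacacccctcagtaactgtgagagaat
Smyd1: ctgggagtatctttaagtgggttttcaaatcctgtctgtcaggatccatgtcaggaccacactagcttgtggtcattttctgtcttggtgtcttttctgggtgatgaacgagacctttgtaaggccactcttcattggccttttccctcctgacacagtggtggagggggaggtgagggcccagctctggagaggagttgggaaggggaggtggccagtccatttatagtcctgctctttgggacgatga
Trim54: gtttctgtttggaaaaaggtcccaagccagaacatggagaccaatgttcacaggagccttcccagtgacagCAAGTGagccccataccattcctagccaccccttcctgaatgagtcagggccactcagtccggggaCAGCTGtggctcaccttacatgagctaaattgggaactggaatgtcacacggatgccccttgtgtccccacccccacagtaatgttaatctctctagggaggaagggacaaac
Klhl40: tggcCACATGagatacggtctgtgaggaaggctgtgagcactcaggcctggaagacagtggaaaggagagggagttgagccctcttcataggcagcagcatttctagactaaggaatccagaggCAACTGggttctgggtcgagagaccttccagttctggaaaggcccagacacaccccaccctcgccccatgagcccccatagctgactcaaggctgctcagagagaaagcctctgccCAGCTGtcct
Ttn: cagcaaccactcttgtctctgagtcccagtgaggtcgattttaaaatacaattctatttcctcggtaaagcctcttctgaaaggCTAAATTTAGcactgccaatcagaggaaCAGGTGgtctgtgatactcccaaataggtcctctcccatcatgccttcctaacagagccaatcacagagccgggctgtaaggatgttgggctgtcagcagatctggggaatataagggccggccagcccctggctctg
Mybph: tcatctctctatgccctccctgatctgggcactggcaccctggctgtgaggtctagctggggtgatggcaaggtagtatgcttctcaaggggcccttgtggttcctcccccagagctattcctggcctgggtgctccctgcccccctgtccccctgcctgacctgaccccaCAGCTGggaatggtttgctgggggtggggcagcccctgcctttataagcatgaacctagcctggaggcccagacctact
Actn2: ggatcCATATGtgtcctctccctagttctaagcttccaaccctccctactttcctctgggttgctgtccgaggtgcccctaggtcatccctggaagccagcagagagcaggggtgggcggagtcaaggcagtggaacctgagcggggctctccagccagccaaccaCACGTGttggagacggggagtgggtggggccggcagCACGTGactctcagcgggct
Bag3: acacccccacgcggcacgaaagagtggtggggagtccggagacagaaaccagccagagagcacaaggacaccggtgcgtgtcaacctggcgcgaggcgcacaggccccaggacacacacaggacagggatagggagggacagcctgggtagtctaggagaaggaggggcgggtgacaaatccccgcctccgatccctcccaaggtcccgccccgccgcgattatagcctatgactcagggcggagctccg

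These runs are from RefSeq on GRCm38.p6, whereas the submitters' processing notes name GRCm39. On GRCm38.p6 they lie at chr1:75360042-75360291 (forward strand) for Des, chrX:157698723-157698909 (forward strand) for Smpx, chr6:71262282-71262531 (reverse strand) for Smyd1, chr5:31116362-31116611 (forward strand) for Trim54 and chr9:121777357-121777606 (forward strand) for Klhl40. The others lie at chr2:76982548-76982797 (reverse strand) for Ttn, chr1:134193198-134193447 (forward strand) for Mybph, chr13:12340761-12340982 (reverse strand) for Actn2 and chr7:128523333-128523582 (forward strand) for Bag3. Of the 37 genes 29 had a promoter in the table, with 35 promoters in all. In the 250 bases before the start, read on both strands, the E-box CAGCTG was in 11 of 35 (31.4%), against 13% of all 32851 promoters, and the MEF2-type site was in 9 (25.7%, against 3.2%). The CArG box, the site of serum response factor, was in 4 (11.4%, against 1.47%), of which 2 are overlapping windows of Ldb3, so that 3 genes held it. Less different were CAGGTG at 25.7% against 17.2%, the MCAT site CATTCC at 17.1% against 12.6%, and any CANNTG, a pattern that includes CAGCTG and CAGGTG, at 71.4% against 66.2%. With the base before the RefSeq start as -1 (for Smpx and Actn2 the printed runs stop short of that start), a CAGCTG began at -36 in Des, -113 in Trim54, -79 in Mybph and -10 in Klhl40. A MEF2-type site began at -126 in Smpx and -166 in Ttn. The windows of Smyd1 and Bag3 held none of the 6 patterns. These matches describe letters and not bound sites.

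Library totals were 8821669 to 11536396 counts, and CPM values from here on are scaled by TMM factors. Mapk14 RNA, the check of the label, was at 130.1, 135 and 108 CPM in WT GM and 130.3, 136 and 137 in KO GM (adjusted p = 0.35 by edgeR's quasi-likelihood test), and at 93.9, 91.2 and 88.7 in WT DM and 93.8, 90.0 and 84.5 in KO DM (adjusted p = 0.822). It was thus not lower under the KO label, and WT and KO name libraries as labelled throughout. The skeletal muscle identity of the cells shows in Myod1, at 65 to 155 CPM in the group means, and Myog, at 31.4 to 615. Replicate 3 of both GM groups stood apart: it held the highest of the 3 values for 29 of 37 genes in WT GM and for 29 in KO GM, at a median of 1.57 and 1.73 times the mean of the other 2 libraries. In DM replicate 3 was highest for 10 and 5 of 37.

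The first comparison was that of DM with GM in WT cells, the reference for sarcomere formation. Of the 37 genes 35 rose and none fell, where 33.2% of all tested genes were called, 18.4% rising and 14.8% falling. The median log2 fold change was 2.29, against -0.01 over all tested genes, and 33 genes rose at least 2-fold, as did 894 of all 13250 tested genes. For these 35 genes every DM library lay above every GM library, as for 23.7% of all tested genes. Myot, Mybpc1 and Mybpc2 had group means below 0.5 CPM except in WT DM, so the rule for keeping genes held them through that group. Tcap (mean 2.39 CPM in WT DM, 0.0358 to 0.872 in the other groups) was kept largely through it. For these genes the rise in WT cells and the lower KO DM level are favoured by that rule. Xirp2 was kept through both DM groups (means of 2.52 CPM in WT DM and 2.54 in KO DM, 0.201 in WT GM and 0 in KO GM). Its rise in each genotype is thus favoured by the rule as well. In the KO-labelled cells 34 of 37 rose and none fell (background 40.6% called, 20.8% rising and 19.8% falling), with a median of 3.20, or 3.18 with the genes at 0 counts placed at their bound (-0.001 over all genes), and 34 genes had DM libraries all above GM (background 25.6%). Without both GM replicate 3 libraries the risers were 35 in WT and 34 in KO cells, with medians of 2.62 and 3.58. Over all genes that fit called 2837 and 3264 of 13446 higher, against 2442 and 2754 of 13250 in the main fit.

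Set against WT, the KO-labelled libraries held less of these transcripts in either medium. In GM 32 of 37 were lower and none higher (background 20.7% called, 10.6% lower and 10% higher), with a median of -2.08, or -2.02 at the bounds (-0.005 over all genes). In DM 30 were lower and none higher (background 31% called, 17.4% lower and 13.6% higher), with a median of -1.11 (-0.02 over all genes). The KO GM libraries lay wholly below WT GM for 32 genes (background 16.5%) and wholly above for 1, Bag3 (background 15.8%), and the KO DM libraries wholly below WT DM for 35 (background 26.2%). Together the 37 genes took 0.278 ± 0.0324% of the counts in WT GM, 0.756 ± 0.00289% in WT DM, 0.117 ± 0.0133% in KO GM and 0.373 ± 0.0102% in KO DM (mean ± SD, n = 3). The mean KO level had a median over genes of 23.6% of WT in GM and 46.4% in DM. In the fit of the 6 GM libraries alone 22 of the 32 genes it tested were lower in GM (1002 of 12640 over all genes). The calls of Csrp3, Synpo2l, Xirp1, Myom2, Mybph, Tmod1, Lmod3 and Klhl41 ended there (adjusted p = 0.0522 to 0.11). Without both GM replicate 3 libraries 29 genes were lower in GM, and in DM 34 were lower and 1, Bag3, was higher. Over all genes that fit called 1749 of 13446 lower in GM, and 2629 lower and 2399 higher in DM. The main fit called 1410 of 13250 lower in GM, and 2312 lower and 1802 higher in DM. Calls of single genes in DM rested on few libraries in 5 cases. Those of Myom1 and Mybph ended without any 1 of the 6 DM libraries (adjusted p = 0.0619 to 0.0825 and 0.0784 to 0.115), and that of Mybph also without replicate 2 of WT GM (0.0508) or replicate 1 of KO GM (0.052). With all 12 libraries the call of Myom1 ended with DESeq2 (adjusted p = 0.0843), and that of Mybph in edgeR with no filter on low counts (0.0625). That of Ttn ended without WT DM replicate 2 (0.0517), KO DM replicate 1 (0.067) or KO DM replicate 2 (0.0516). That of Actn3 ended without KO DM replicate 2 (0.0579), and that of Tcap without WT DM replicate 1 (0.058) or 2 (0.0811) or KO DM replicate 2 (0.0509) or 3 (0.124). In such bulk samples fewer cells building sarcomeres and less RNA per cell cannot be told apart.

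**Figure D1:**
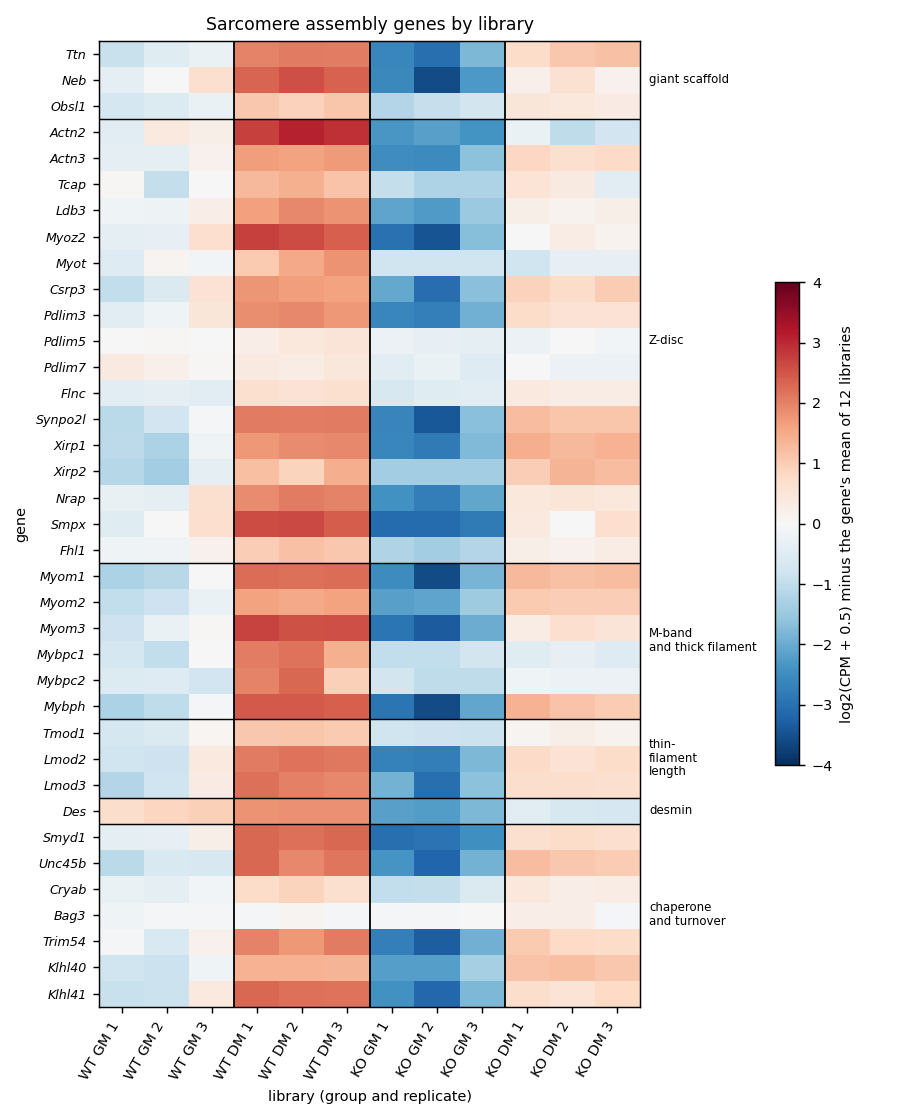
Heat map of log2(CPM + 0.5) for 37 genes (rows, by role) in 12 libraries (columns), each gene centred on its own mean. WT DM columns are the reddest and KO GM the bluest for most genes, KO DM and WT GM lie between, and the replicate 3 columns of both GM groups are redder than their neighbours for most genes.

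**Figure D2:**
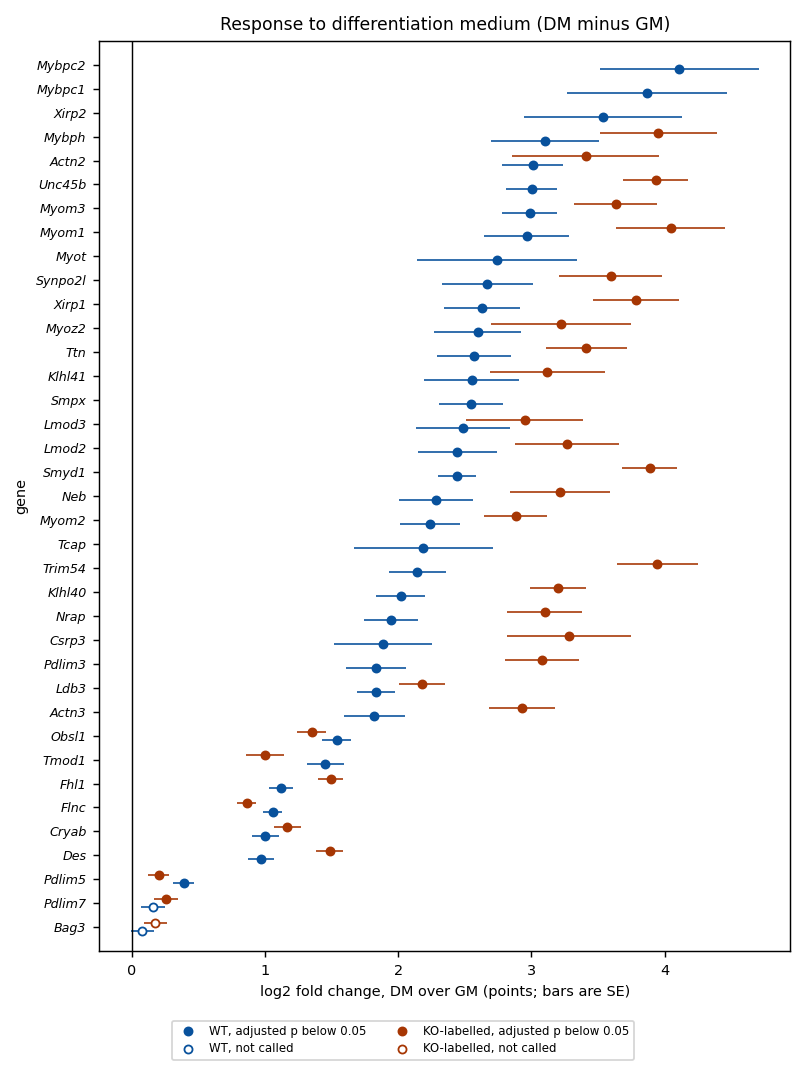
Log2 fold change from GM to DM (x axis) for each gene (y axis) in WT and KO-labelled cells, with SE as bars and filled points for adjusted p below 0.05. Genes with 3 or fewer counts in KO GM are drawn for WT alone, and Pdlim5, Pdlim7 and Bag3 sit nearest 0.

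Among the giant scaffolds, Ttn (titin) was at 55.8, 74.3 and 87 CPM in WT GM and 409, 443 and 433 in WT DM, and at 16.5, 12.4 and 29.7 in KO GM and 174, 218 and 233 in KO DM. It rose in both genotypes (2.57 ± 0.28, adjusted p = 0.000122 in WT, and 3.41 ± 0.30, adjusted p = 2.66e-05 in KO cells), and the groups did not overlap. Its KO DM level was 48.7% of that in WT DM (-1.04 ± 0.26, adjusted p = 0.0162). Neb (nebulin, which sets the reach of the thin filament) was at 23.5, 30.1 and 47.9 CPM in WT GM and 155, 183 and 158 in WT DM. In KO cells it was at 4.72, 2.08 and 5.76 CPM in GM and 35, 46.6 and 34.4 in DM, so that KO DM libraries were near those of WT GM. Its log2 differences under the KO label were -3.03 ± 0.38 in GM and -2.09 ± 0.27 in DM, both called. Obsl1, the obscurin-like linker of titin and myomesin, had the smallest change of the 3 in each contrast. It was at 85.5 ± 13.5 and 248 ± 15.8 CPM in WT GM and DM, and at 62.9 ± 9.47 and 161 ± 8.36 in KO GM and DM (means ± SD, n = 3), with all 4 contrasts called.

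At the Z-disc 16 of 17 tested genes rose in WT cells and 16 of 17 in KO cells. The alpha-actinins, which crosslink the thin filaments there, kept different shares of their WT level. Actn2 was at 1.75, 3.55 and 3.09 CPM in WT GM and 20.05, 25.1 and 22.5 in WT DM, against 0.107, 0.173 and 0.0887 in KO GM and 2.03, 1.03 and 1.3 in KO DM. No KO library reached a WT library of the same medium, and the KO DM mean was 6.44% of WT DM (-3.96 ± 0.25, adjusted p = 6.5e-11). Actn3, the fast-fibre form, was at 407, 392 and 414 CPM in WT DM and 229, 199 and 217 in KO DM, that is 53.2% (-0.91 ± 0.22, adjusted p = 0.0136). KO GM held 4 counts of Actn2 in all 3 libraries together, so its value there rests on few reads.

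Of the proteins that bind alpha-actinin, Ldb3 (ZASP or cypher) rose from 27.5 ± 5.34 to 97.7 ± 10.1 CPM in WT and from 7.05 ± 2.21 to 32.1 ± 1.1 in KO cells, 32.8% of WT in DM (-1.61 ± 0.14, adjusted p = 9.35e-08). Myoz2, a calsarcin that tethers calcineurin, was at 48.3, 44.5 and 38 CPM in WT DM and 6.89, 8.5 and 7.52 in KO DM (-2.51 ± 0.32, adjusted p = 0.000149). The small stretch-related protein gene Smpx was at 2.47, 3.76 and 6.19 CPM in WT GM and 24.9, 25.8 and 22.2 in WT DM. In KO GM it had 1 count in all, at 0, 0 and 0.0887 CPM, and in KO DM it was at 4.96, 3.64 and 6.22. Its KO GM level was 134-fold below WT GM, with a counting interval (95%) of 23.6 to 5329-fold, and KO DM was 159-fold above KO GM (28.1 to 6316-fold). Myot (myotilin) had 0 counts in KO GM and 4 in KO DM, against 1.27, 1.94 and 2.49 CPM in WT DM (-3.79 ± 0.68, adjusted p = 0.000217). It was at least 2.95-fold lower in KO GM than in WT GM, a call (adjusted p = 0.0404) that ended without any 1 of WT GM replicates 2 and 3, WT DM replicates 2 and 3 and KO GM replicates 1, 2 and 3 (adjusted p = 0.05 to 0.121).

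Csrp3 (muscle LIM protein), Synpo2l and the actin-binding Xin gene Xirp1 were at 57.4%, 52.5% and 72.3% of WT in DM. Csrp3 was at 45.3, 42.8 and 40.9 CPM in WT DM, 25, 22.1 and 26.8 in KO DM and 2.79, 1.13 and 3.72 in KO GM. Xirp1 was at 131, 143 and 148 CPM in WT DM, 106, 95.8 and 103 in KO DM and 5.91, 5.03 and 11 in KO GM. KO DM libraries lay below WT DM for each of these genes, but their differences were not called: -0.80 ± 0.34, adjusted p = 0.11 for Csrp3, -0.93 ± 0.31, adjusted p = 0.0559 for Synpo2l and -0.47 ± 0.25, adjusted p = 0.203 for Xirp1. All 3 were lower in GM, with differences of -2.20 ± 0.50, -1.86 ± 0.40 and -1.62 ± 0.35, calls that ended in the fit of the 6 GM libraries alone (adjusted p = 0.0567, 0.109 and 0.0547). Without both GM replicate 3 libraries their DM differences were called (adjusted p = 1.81e-06, 2.22e-09 and 2.29e-06), as they were without WT GM replicate 3 alone (0.000665, 0.0308 and 0.0307). That of Synpo2l was also called without KO GM replicate 2 (0.0297) or 3 (0.0144). They were called as well with limma-voom and in the fit of the 6 DM libraries alone. Xirp2, the other Xin gene, had 0 counts in KO GM but was at 2.13, 2.89 and 2.6 CPM in KO DM and 2.53, 1.94 and 3.09 in WT DM, groups that overlapped (0.01 ± 0.39, adjusted p = 0.986). Its rise in KO cells was at least 27.3-fold, a rise favoured by the rule for keeping genes, which it met through the DM groups.

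Tcap (telethonin, which caps titin at the Z-disc) was scarce, at 2.42, 2.66 and 2.1 CPM in WT DM and 1.22, 1.03 and 0.372 in KO DM (-1.45 ± 0.47, adjusted p = 0.0216). With 1 count in KO GM it was 16.6-fold lower there than in WT GM (2.55 to 698-fold), and 27.7-fold higher in KO DM (4.56 to 1133-fold). The GM call ended without WT GM replicate 1 (adjusted p = 0.0749) or 3 (0.0548), and without replicate 2 (0.081) or 3 (0.0638) of KO GM. Nrap, a nebulin relative that acts in early myofibril assembly, rose by 1.95 ± 0.20 in WT and 3.10 ± 0.28 in KO cells and ended at 33.6% of WT in DM (-1.57 ± 0.20, adjusted p = 2.75e-05). Fhl1, a four-and-a-half-LIM protein, was at 422 ± 25 CPM in WT DM and 233 ± 10.5 in KO DM (-0.86 ± 0.09, adjusted p = 1.23e-07).

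The PDZ-LIM genes split by size of response. Pdlim3 (ALP) rose by 1.83 ± 0.22 in WT and 3.08 ± 0.28 in KO cells, from 6.76 ± 2.3 to 57.7 ± 4.1 CPM in the latter. Pdlim5 was at 117, 120.4 and 118 CPM in WT GM and 141, 156 and 168 in WT DM, a small rise (0.39 ± 0.08, adjusted p = 0.00044), and rose by 0.20 ± 0.08 (adjusted p = 0.0449) in KO cells, where GM and DM libraries overlapped. Pdlim7 was at 121, 110.1 and 99 CPM in WT GM and 123, 117 and 129.6 in WT DM, not called (0.16 ± 0.09, adjusted p = 0.186), and rose by 0.26 ± 0.09 in KO cells (adjusted p = 0.031). The KO-cell calls of both ended without single libraries: that of Pdlim5 without KO GM replicate 2 (adjusted p = 0.11) or 3 (0.113), and without replicate 2 (0.143) or 3 (0.0868) of KO DM, that of Pdlim7 without KO GM replicate 1 (0.085) or 3 (0.105), and without replicate 1 of KO DM (0.141). Flnc, the muscle filamin, was abundant in all groups, at 387 ± 9.42 CPM in WT GM, 806 ± 21.1 in WT DM, 362 ± 26.4 in KO GM and 658 ± 20.4 in KO DM. GM libraries of the genotypes overlapped (-0.10 ± 0.07, adjusted p = 0.367), and in DM it was lower under the KO label (-0.29 ± 0.07, adjusted p = 0.00226).

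**Figure D3:**
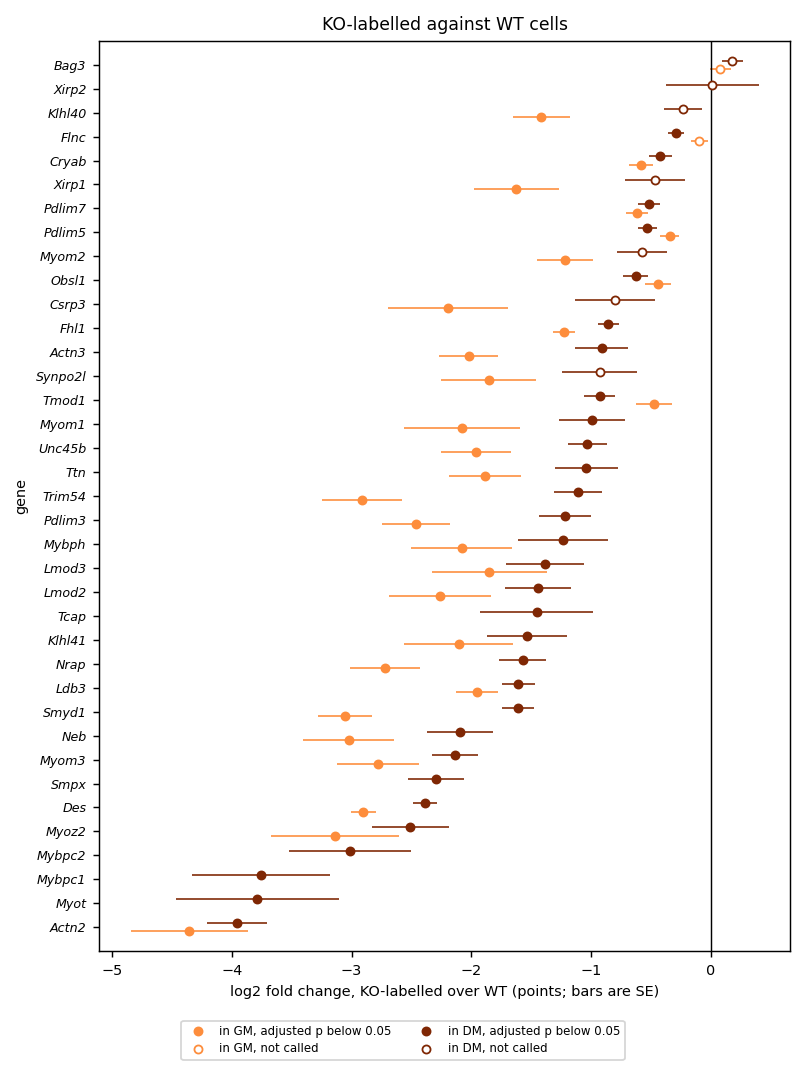
Log2 fold change of KO-labelled over WT cells (x axis) for each gene (y axis) in GM and in DM, with SE as bars and filled points for adjusted p below 0.05. Genes with 3 or fewer counts in KO GM are drawn for DM alone, and the differences run from -3.96 for Actn2 to 0.18 for Bag3 in DM.

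All 6 M-band and thick-filament accessory genes rose in WT cells and 5 of 6 in KO cells. Myom1, which encodes the main crosslinker of thick filaments, was at 5.04, 5.59 and 12.6 CPM in WT GM, 61.3, 59.9 and 61.3 in WT DM, 1.83, 0.607 and 3.1 in KO GM and 31.8, 29 and 30.7 in KO DM. The 4 groups did not overlap within a medium or a genotype, and KO DM was 50.2% of WT DM (-0.99 ± 0.27, adjusted p = 0.0215). Myom2, the form of fast fibres, was at 427 ± 18.9 CPM in WT DM and 286 ± 7.43 in KO DM, a difference that was not called (-0.58 ± 0.21, adjusted p = 0.0707) but was so without replicate 3 of WT GM (adjusted p = 0.0202) or of KO GM (0.0116). It was called as well with limma-voom (adjusted p = 0.0045) and in edgeR without robust dispersion (0.0121) or with the replicate number as a block (0.0287). In the fit of the 6 DM libraries alone its adjusted p was 6.11e-09. Myom3 was at 60.5, 54 and 55.3 CPM in WT DM and 11, 14.5 and 13 in KO DM, 22.7% (-2.14 ± 0.19, adjusted p = 2.05e-07). Mybph, a relative of myosin-binding protein C, was at 67.4, 79.4 and 157 CPM in WT GM, 879.9, 881 and 852 in WT DM, 20.9, 13.2 and 37.6 in KO GM and 425, 359 and 328 in KO DM (-1.23 ± 0.38, adjusted p = 0.0374 in DM). The slow and fast myosin-binding protein C genes Mybpc1 and Mybpc2 were scarce, and were kept only through WT DM, which favours their calls against it. Mybpc1 was at 3.57, 3.88 and 2.1 CPM in WT DM and 0.203, 0.28 and 0.186 in KO DM (-3.76 ± 0.58, adjusted p = 2.83e-05). Mybpc2 was at 3.57, 4.5 and 1.5 CPM in WT DM and 0.405, 0.373 and 0.372 in KO DM (-3.01 ± 0.51, adjusted p = 8.34e-05). Each had 1 count in KO GM, and Mybpc1 was not called there against WT GM (adjusted p = 0.229) or in its response in KO cells (adjusted p = 0.135). The KO-cell call of Mybpc2 (adjusted p = 0.0253) ended without KO GM replicate 2 (adjusted p = 0.0924) or 3 (0.0769).

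Among the regulators of thin-filament length, the leiomodins Lmod2 and Lmod3 nucleate and lengthen thin filaments. Lmod2 was at 7.92, 7.74 and 18.8 CPM in WT GM, 61.4, 65 and 62.1 in WT DM, 1.72, 1.65 and 3.72 in KO GM and 24.3, 21.2 and 23.8 in KO DM. Lmod3 was at 68.9, 60.7 and 56.6 CPM in WT DM and 23.9, 24.1 and 23.1 in KO DM, and they ended at 36.8% and 38.2% of WT. Tmod1, the tropomodulin that caps the pointed end, was at 17.5, 19 and 30.2 CPM in WT GM and 16.4, 16.1 and 15.6 in KO GM, a small difference (-0.47 ± 0.15, adjusted p = 0.0279). In DM it was at 60.9, 62.1 and 60.1 CPM in WT and 31.1, 33.6 and 31.4 in KO cells (-0.93 ± 0.13, adjusted p = 1.64e-05). WT GM replicate 3 held the highest GM value of Tmod1, and the DM groups did not overlap. Without that library the GM difference was -0.19 (adjusted p = 0.253), and the response to DM was then smaller in KO cells by a called -0.72 (adjusted p = 0.00167; -0.45 and adjusted p = 0.171 with it). The GM call of Tmod1 also ended without KO GM replicate 1, 2 or 3 (adjusted p = 0.0582, 0.0653 and 0.0631), and that of Lmod3 without KO GM replicate 1 or 2 (0.0635 and 0.0693).

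Des (desmin), the intermediate filament that links Z-discs to each other, was the most abundant of these genes per exon length in WT cells. It was at 839, 924 and 984 CPM in WT GM and 1759, 1797 and 1814 in WT DM, against 112, 109 and 147 in KO GM and 377, 329.5 and 322 in KO DM. No KO-labelled library of either medium reached the lowest WT GM library. It rose in both genotypes (0.97 ± 0.10 and 1.48 ± 0.10) and was lower under the KO label in GM (-2.90 ± 0.10, adjusted p = 6.39e-14) and in DM (-2.39 ± 0.10, adjusted p = 3e-13). On the scale of CPM per kb of exon (GENCODE M21 lengths) Des was at 302 ± 24.1 in WT GM and 591 ± 9.4 in WT DM, ahead of Mybph at 374 ± 7.07 and Cryab at 230.0 ± 19.3 in WT DM. In KO DM the order was Cryab at 172 ± 10.7, Mybph at 159 ± 21.3 and Des at 113 ± 9.78 CPM per kb, and Cryab and Mybph differed by less than the SD of Mybph. Ttn, with 113.6 kb of exon, was at 3.77 ± 0.153 CPM per kb in WT DM.

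Of 7 chaperone and turnover genes 6 rose in each genotype. Unc45b, the myosin chaperone, was at 3.81, 5.48 and 5.39 CPM in WT GM, 44.6, 33.8 and 39.5 in WT DM, 1.29, 0.52 and 1.95 in KO GM and 20.9, 18.9 and 17.9 in KO DM. It ended at 48.9% of WT (-1.03 ± 0.16, adjusted p = 3.93e-05). Smyd1, a muscle methyltransferase that works with it in thick-filament assembly, was at 8.64, 9.03 and 13.6 CPM in WT GM, 57.4, 54.5 and 58.3 in WT DM, 0.966, 1.04 and 1.68 in KO GM and 17.8, 19.3 and 18.5 in KO DM. The KO libraries were the lower in each medium (-3.06 ± 0.23 and -1.61 ± 0.13). Klhl40, which stabilizes nebulin and Lmod3, was at 6.17, 5.91 and 9.78 CPM in WT GM, 2.04, 1.99 and 4.08 in KO GM, 29.7, 29.7 and 29.4 in WT DM and 25, 26.3 and 24.2 in KO DM. It was lower in KO GM (-1.42 ± 0.24, adjusted p = 0.000148) and at 85% of WT in DM, not called (-0.24 ± 0.16, adjusted p = 0.291). Its relative Klhl41 was at 178, 166 and 164 CPM in WT DM and 59.3, 53.1 and 62.4 in KO DM, 34.4% (-1.54 ± 0.33, adjusted p = 0.00833). Trim54 (MURF3), a microtubule-binding E3 ligase, was at 7.41, 4.94 and 8.88 CPM in WT GM, 32.4, 27.3 and 34.6 in WT DM, 0.751, 0.347 and 1.68 in KO GM and 16.4, 14 and 13.3 in KO DM, with no overlap within a medium or a genotype.

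Cryab and Bag3 are the stress chaperones of the set. Cryab (alpha-B crystallin) was at 148 ± 12.4 CPM in WT GM and 98.6 ± 16.4 in KO GM, and rose by 1.00 ± 0.10 in WT and by 1.17 ± 0.10 in KO cells. Bag3, a co-chaperone of filamin turnover, was at 82.5, 88.8 and 89 CPM in WT GM, 87.3, 100.1 and 87.4 in WT DM, 89.5, 90.9 and 94.5 in KO GM and 112, 111 and 87.9 in KO DM. Its groups lay close together and none of its contrasts was called (0.08 to 0.18 in the 4 group contrasts), but it was called higher in KO DM than in WT DM without KO DM replicate 3 (0.30, adjusted p = 0.0123) and without both GM replicate 3 libraries (0.20, adjusted p = 0.0462). It rose in KO cells without the same libraries (0.29, adjusted p = 0.0107, and 0.22, adjusted p = 0.038).

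Whether the response to DM itself differed by genotype label was tested by the interaction, the KO response minus the WT response. It was called for 5 of 37 genes, all higher (background 8.86% called, 3.61% higher and 5.25% lower), with a median of 0.75 (-0.01 over all genes). The 5 were Smpx, Trim54 (1.80 ± 0.41, adjusted p = 0.00963), Smyd1 (1.45 ± 0.28, adjusted p = 0.00213), Klhl40 (1.18 ± 0.29, adjusted p = 0.0131) and Des (0.52 ± 0.14, adjusted p = 0.0209). Each started lower in KO GM than in WT GM and rose by a larger factor. For Des, Smpx, Smyd1 and Trim54 this was not a larger gain in CPM. The mean of Des went from 915 to 1790 CPM in WT and from 122 to 343 in KO cells. The value of Smpx (4.29 ± 0.88, adjusted p = 0.0039) rests on the single KO GM count. The number called depended on the GM libraries: it was 16 without KO GM replicate 3, 21 higher and 1 lower (Tmod1) without both GM replicate 3 libraries, 3 without KO GM replicate 2, and 8 without WT GM replicate 1. Over all genes the calls moved too: from 478 higher and 696 lower of 13250 to 969 and 951 of 13499 without KO GM replicate 3, to 1373 and 1336 of 13446 without both GM replicate 3 libraries, and to 304 and 437 of 13487 without KO GM replicate 2. Without WT GM replicate 1 they were 469 and 478 of 13452. The calls of Des and Klhl40 ended without KO GM replicate 2 (adjusted p = 0.054 and 0.0516), and that of Des also without replicate 1 of KO GM (0.0526) or of KO DM (0.0538).

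**Figure D4:**
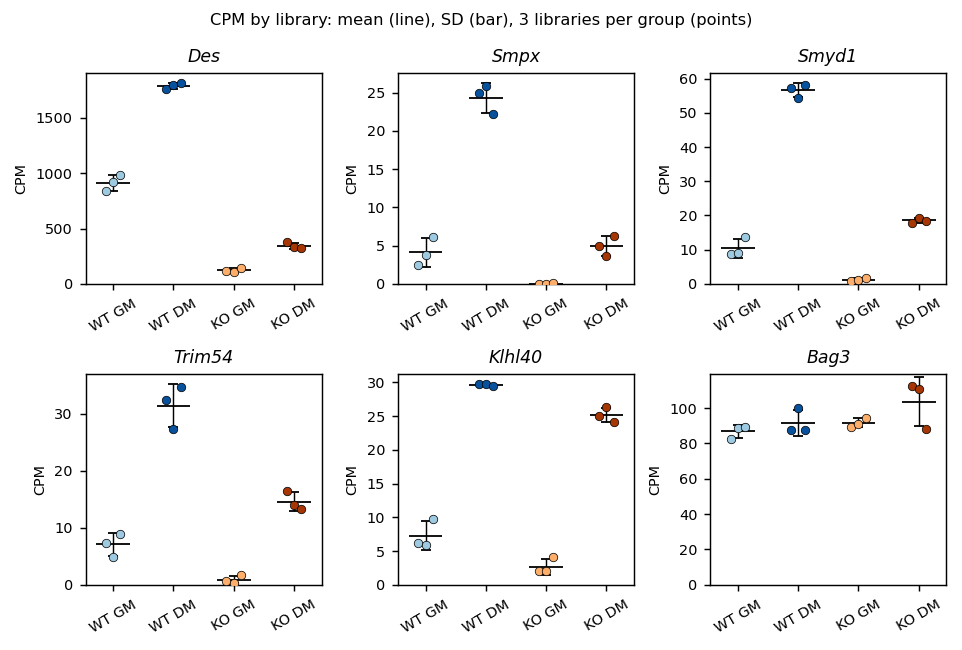
CPM (y axis, linear from 0) in each library of the 4 groups (x axis) for the 5 genes whose response differed by genotype label and for Bag3, with the mean as a line and the SD as a bar (n = 3). Des stays below its WT GM libraries in KO DM, Klhl40 in KO DM lies just below WT DM, and Bag3 is at a like level in all groups.

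Relatives within gene families were set side by side in DM. The log2 ratio of counts within a library was compared between KO DM and WT DM for 13 pairs by a 2-sided exact permutation test, which with 3 against 3 libraries cannot give p below 0.1 (adjusted p = 0.13 at that limit). In 10 of the 13 pairs all KO DM ratios lay below all WT DM ratios, each at that limit, so that no pair passed 0.05. The direction follows from which gene of a pair was put first. Several pairs share a gene, so the pairs are not separate results, and no share over other gene pairs was computed. The largest gap was between Actn2 and Actn3, whose log2 ratio was -4.17 ± 0.19 in WT DM and -7.22 ± 0.39 in KO DM. Klhl41 to Klhl40 went from 2.51 ± 0.06 to 1.21 ± 0.18, Myom3 to Myom2 from -2.91 ± 0.07 to -4.48 ± 0.23, and Mybpc1 to Mybph from -8.12 ± 0.45 to -10.43 ± 0.31. Mybpc1 and Mybpc2 were kept only through WT DM, which favours lower KO DM ratios to Mybph. In KO DM Mybpc1 held 2, 3 and 2 counts and Mybpc2 4, 4 and 4, so the ratios of both rest on few reads. Lmod2 to Lmod3 overlapped between genotypes (0.02 ± 0.16 and -0.04 ± 0.13), as did Xirp2 to Xirp1 (-5.79 ± 0.33 and -5.30 ± 0.29) and Pdlim5 to Pdlim7 (0.33 ± 0.12 and 0.32 ± 0.25). No label states how reads shared by near relatives were assigned.

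**Figure D5:**
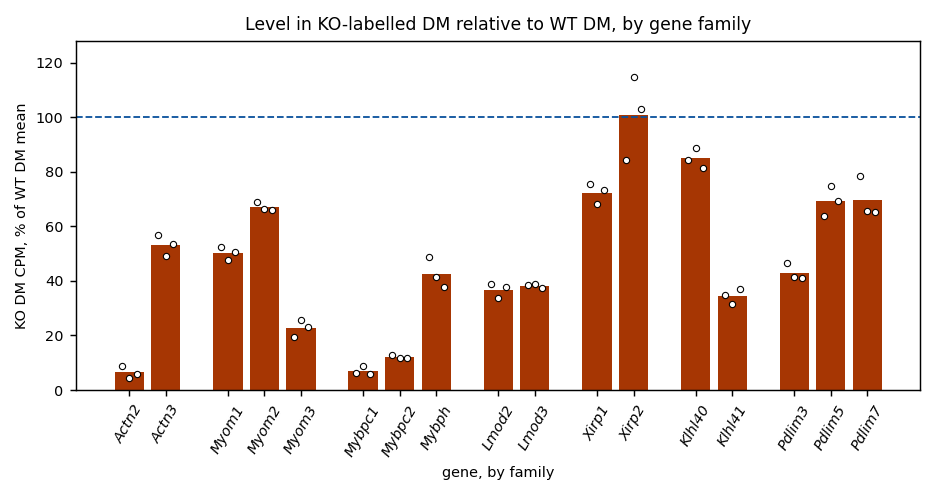
Level in KO DM as a percent of the WT DM mean (y axis, from 0) for genes grouped by family (x axis), with bars for the mean and points for the 3 KO DM libraries. Actn2 stands at 6.44% beside Actn3 at 53.2%, Klhl41 at 34.4% beside Klhl40 at 85%, and Lmod2 and Lmod3 are level with each other.

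Of 50 companion genes of the Z-disc and of sarcomere assembly, listed with results of these data known, 48 were tested and Myoz3 and Mybpc3 had 1 and 2 counts. In WT DM 23 of 48 were higher and 9 lower than in GM (median 0.31; background 18.4% and 14.8% of all genes, against 47.9% and 18.8% of companions), and in KO cells 22 and 12 (median 0.09; background 20.8% and 19.8%, against 45.8% and 25%). Under the KO label 18 (37.5%, background 10.6%) were lower and 1 higher in GM (median -0.24), and 27 (56.2%, background 17.4%) lower and 4 (8.33%, background 13.6%) higher in DM (median -0.39). The largest fitted rises were those of Hspb3, a small heat shock protein gene, by 4.58 ± 0.78 in WT and 5.11 ± 1.42 in KO cells, and of the kelch gene Klhl31 by 2.75 ± 0.29 in WT and 4.35 ± 0.43 in KO cells. Hspb3 was at 0.103, 0.107 and 0 CPM in WT GM and at 0 in every KO GM library. In KO DM it was at 0.507, 0.187 and 0.557 CPM. Its log2 values thus rest on few counts, and that in KO cells is not a measured fold. Among the fallers was Fhod1, a formin (-0.63 ± 0.08 in WT). The non-muscle alpha-actinin genes Actn1 (-0.44 ± 0.08 and -0.54 ± 0.08) and Actn4 (-0.28 ± 0.07 and -0.49 ± 0.07), named after their values were seen, also fell in WT and KO cells, where Actn2 and Actn3 rose. In KO DM the largest called differences from WT DM among companions were Ankrd2, a stretch-response protein gene (-2.53 ± 0.26), Hspb7 (-2.29 ± 0.19) and, in the other direction, the intermediate filament gene Synm (1.84 ± 0.26) and Fhod3, a formin of sarcomeres (0.43 ± 0.10).

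Sums over marker lists of other cell types differed between some of these groups, and their part in the results was not tested. The smooth muscle markers, 4 of 6 tested, summed to 297 to 322 CPM in WT GM, 264 to 304 in WT DM, 213 to 248 in KO GM and 121.5 to 133 in KO DM, most of it Smtn and Actg2, and Synm is on this list and among the companions. The neural and Schwann cell markers, 2 of 6 tested with Sox10 and Elavl4 at 0 counts, summed to 45.1 to 54.6 CPM in the WT libraries, 14.5 to 18.5 in KO GM and 6.32 to 7.28 in KO DM, most of it Tubb3. The macrophage and leukocyte markers, 4 of 6 tested with Ptprc and Adgre1 at 0 counts, summed to 34.3 to 47.7 CPM in WT GM, 19.1 to 22.2 in WT DM, 39.5 to 46.1 in KO GM and 32.4 to 40.1 in KO DM, from Cd14, Csf1r, Lyz2 and Cd68. The cardiac markers, 2 of 7 tested with Nppa, Tbx5, Myl7 and Hcn4 at 0 counts, summed to 3.65 to 5.04 CPM in WT GM, 8.28 to 10.3 in WT DM, 5.80 to 9.58 in KO GM and 8.36 to 9.02 in KO DM. The adipocyte list, 1 of 5 tested (Fabp4) with Adipoq, Cidec and Lep at 0 counts, summed to 4.42 to 11.2 CPM in WT GM, 3.09 to 3.17 in WT DM, 0.953 to 2.22 in KO GM and 0.280 to 0.929 in KO DM. No endothelial or epithelial marker was tested, and these lists summed to at most 1.33 and 0.715 CPM in any library. The skeletal muscle markers, all 6 tested, summed to 679 to 1139 CPM in WT GM, 4314 to 4449 in WT DM, 166 to 351 in KO GM and 2180.4 to 2506 in KO DM, most of it Acta1 in both DM groups. Single markers did not all follow that sum: Myf5 held 3.44, 5.55 and 5.94 CPM in KO GM against 4.86, 4.39 and 4.83 in KO DM. Myh3 was at 891, 854 and 825 CPM in WT DM and 71, 59.9 and 63.5 in KO DM. Myod1 was closer between them, at 150, 169 and 146 CPM in WT DM and 132, 126 and 111 in KO DM.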

How the data were processed

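RNA-seq was made from 12 C2C12 libraries with paired-end 150 bp reads, per the labels' protocols. The authors deposited whole-number counts per Ensembl gene. Per the submitters' processing notes the tools were STAR 2.7.1a, RSEM 1.3.3, R 4.3.1 and DESeq2 1.40.2 with GRCm39; these notes give no roles, and neither annotation nor strandedness is named. The 4 columns that map to no sample were not used. Symbols were found for 52083 of 55416 identifiers.

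Counts were fitted with edgeR 4.0.16 in R 4.3.3 (filterByExpr, TMM factors, robust quasi-likelihood) in 1 model of 4 groups over 12 libraries, and p-values were adjusted by Benjamini-Hochberg over all 13250 tested genes, which held 99.9% of the counts. A gene was called at an adjusted p below 0.05. Fold changes are log2 with their SE, taken as the absolute fold change divided by the square root of its F statistic. For genes with few counts this is rough. Myot had 0.60 and 1.70 for the WT and KO responses but 0.84 for their difference. The limit that a count of 0 allows was 3 counts, and count intervals are at 95% and cover counting error only. Family ratios used a pseudocount of 0.5. Replicate pairs were checked for duplicates and none was found. The fit was tested on simulated data. Alternatives changed the scaling, filter, dispersion, tool (DESeq2 1.42.0, limma 3.58.1), libraries or replicate block. The members and lists, and the rule for what is named, were chosen with earlier results of these data known: every member may be named, with values per library for the largest and smallest changes of each role, and up to 4 called companions a contrast. Promoters were matched by symbol. A companion gene that enters the counts is not reported here.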

Additional observations from a re-analysis of the deposited data

Results flagged for a closer look

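For 5 of the sarcomere genes the response to DM differed between the genotype labels by edgeR's interaction test (KO response minus WT response, log2). The differences were 4.29 for Smpx, 1.80 for Trim54, 1.45 for Smyd1, 1.18 for Klhl40 and 0.52 for Des.

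Among the companion genes the following were set apart by the same test. On the log2 scale the response was greater in KO cells for Trim63, the E3 ligase MURF1 (1.86), and for the intermediate filament gene Synm (1.63). It was lower for Pdlim1 (-0.98), the small heat shock protein gene Hspb1 (-0.83), the filamin gene Flna (-0.54), Vcl, which encodes vinculin (-0.47), and Hsp90aa1 (-0.46). The myogenic factor gene Myod1 differed by 0.64.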

How the results depend on the processing

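In all 12 fits without 1 library the WT risers numbered 35, with a median of 2.20 to 2.62. The other ranges were 31 to 34 risers in KO cells (median 2.90 to 3.56), 28 to 32 genes lower under the KO label in GM (median -2.57 to -1.71), and in DM 25 to 34 lower and 0 to 1 higher (median -1.18 to -1.02). Over all genes these fits called 1958 to 2641 risers in WT and 2225 to 3109 in KO cells. Under the KO label they called 1130 to 1563 lower in GM and 1736 to 2398 lower in DM. In the fit of the 6 GM libraries alone 22 of 32 tested genes were lower (median -2.00). Over the 12 fits the interaction calls ranged from 3 to 16 higher and 0 to 1 lower (median 0.44 to 1.31). Over all genes they ranged from 293 to 969 higher and 400 to 951 lower. The genes called numbered 8 with total counts alone, DESeq2, limma-voom or no filter on low counts, 9 without robust dispersion, and 21 higher with 1 lower without both GM replicate 3 libraries, where 1 gene was also higher in KO DM than in WT DM. Over all genes the interaction calls were 683 higher and 498 lower with total counts, 537 and 721 with DESeq2, and 464 and 667 with limma-voom. They were 711 and 774 of 21858 with no filter, and 468 and 665 without robust dispersion. The cause was not tested. With the replicate number as a block the interaction calls were 8 (666 higher and 921 lower over all genes). Correlations of same-numbered libraries were -0.085 to 0.186 and in no contrast all over 0.1, so the number was not taken as a pairing. Of the 4 comparisons tested, in that of WT GM with WT DM alone each library correlated best with its own number, a hint from the data and not the design. The group pairs not compared by a test showed the same. Same-numbered libraries were at 0.117, 0.042 and 0.121 for WT GM with KO DM, and at 0.101, 0.053 and 0.099 for WT DM with KO GM. Of the values of single genes 4370 kept direction and side of the threshold, 81 were no longer called, 90 became called and 10, none of them called, changed sign. With ranges over all fits, the main one among them, these were Bag3 in WT DM against GM (-0.00018 to 0.11), Xirp2 in KO DM against WT DM (-0.14 to 0.21) and Mapk14 there (-0.042 to 0.021, and 0.013 with total counts). In the interaction they were Lmod3 (-0.13 to 0.85), Mybpc2 (-1.40 to 0.91), Mybpc1 (-3.16 to 0.38) and, with limma-voom, Myot (-1.09). Depth limits the genes with 0 to 4 counts in KO GM.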

Other observations

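KO DM was also set beside WT GM as values, with no test. The KO DM mean was above the WT GM mean for 32 of 37 genes, with a median over genes of 178% of WT GM. The 5 below were Des at 37.4%, Myot at 44.8%, Actn2 at 51.9%, Pdlim7 at 78% and Pdlim5 at 90.6%.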
